A study of Mus musculus with 6 samples.

Results

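Whole-kidney RNA of polycystic mice was examined for 44 genes of the non-collagen extracellular matrix, chosen by name from their known roles, out of 23276 gene symbols that the authors' table lists. Of these, 28 encode structural glycoproteins and proteoglycans and 16 encode enzymes, inhibitors and a chaperone that crosslink, cut or fold the matrix. All 44 are listed, and 42 have a mean of at least 1 CPM (counts scaled to the size of the library). Of all 23276 symbols, 13001 (55.9%) reach that level. Members and classes were chosen with earlier results of these data known.

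The series holds 6 mouse kidneys sampled at postnatal day 22 according to the sample labels. In all of them KspCre, a Cre recombinase that acts in kidney tubules, was combined with a Pkd1 F/RC genotype, which has 1 loxP-flanked Pkd1 allele and 1 hypomorphic allele present in every cell. In 3 of these kidneys (Pkd1F/RC-SKO) Pkd1 was the only floxed gene. In the other 3 (Pkd1F/RC-DKO) both alleles of the miR17~92 microRNA cluster were floxed as well. KspCre is a tubule driver, so fibroblasts, endothelium and leukocytes are outside its reach in this model. Normal kidneys were not analysed here.

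The table gives a single mean abundance for each transcript over the kidneys. Values of single kidneys are not part of it, which leaves the spread between mice and the depth of each library unknown. The authors' own comparison of the groups, held in other columns, was not used, so no level is given for either group. Every level below is therefore a value over kidneys of both genotypes, without an error, and no difference between SKO and DKO kidneys is given. The planned test of DKO against SKO kidneys could not be run. Neighbours in an order of levels are not shown to differ. In bulk RNA, a change in the number of cells of a type cannot be told apart from a change in RNA per cell.

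The extracellular matrix of the kidney has a basement membrane under each tubule and an interstitial mesh between tubules. Fibroblasts lay down most of the interstitial mesh, and epithelium and endothelium contribute to the basement membrane. Lysyl oxidases crosslink collagen and elastin, metalloproteinases and the plasminogen system degrade matrix proteins, and tissue inhibitors of metalloproteinases (TIMPs) restrain that degradation. Accumulation of interstitial matrix accompanies advanced polycystic kidney disease.

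Levels of different genes were compared per kilobase of transcript, because a longer transcript collects more reads. The length is that of the GENCODE transcript matched to a gene's highest RefSeq mRNA entry, and a match was found for all 44 genes. CPM values below are those of the highest entry of any kind, and values per kilobase those of the RefSeq entry. Medians were taken on the log2 scale.

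The matrix genes were well represented, with a median of 7.96 CPM per kilobase against 4.06 for the 12476 genes that have a length and at least 1 CPM. Of the 44 members, 33 lay above that median. They were listed as known kidney matrix genes, with earlier results of these data known, so a high level is no finding about the disease. Structural and remodelling genes had similar centres. The median of the 28 structural genes was 7.16 CPM per kilobase and that of the 16 remodelling genes 8.93. Their ranges differed more. Structural genes ran from 0.923 CPM per kilobase for Vcan to 234.7 for Sparc, and remodelling genes from 0.189 for Mmp9 to 122.3 for Timp3. The low end of the remodelling genes rests on Mmp9 and Mmp7, both under 1 CPM. The next lowest, Adamts2, was at 1.19 CPM per kilobase, above Vcan. Genes are not replicates of a condition, so the classes were not tested against each other.

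**Figure D1:**
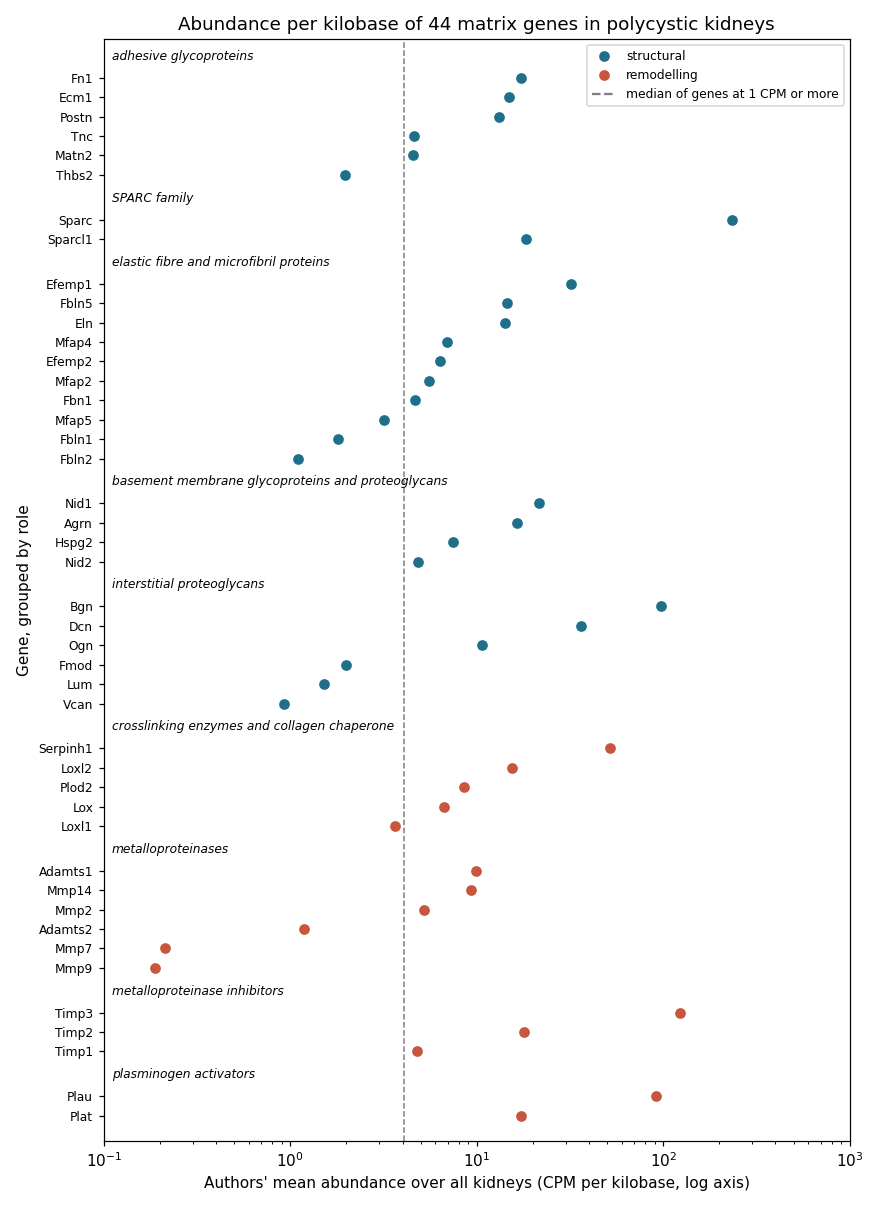
Mean abundance of each of the 44 matrix genes over all kidneys, in CPM per kilobase on a log axis, with genes grouped by role and 1 point per gene (no error is known). Blue points are structural genes and red points remodelling genes, and the dashed line marks the median of genes with at least 1 CPM, 4.06 CPM per kilobase. Sparc and Timp3 stand at the high end, and Mmp7 and Mmp9 lie lowest.

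A few genes carried much of the signal. Sparc, Timp3 and Bgn, the 3 highest members, made up 47.1% of the summed CPM per kilobase of the 44 genes. Among the 20099 genes with a length, Sparc held rank 52, Timp3 rank 174, Bgn rank 227 and Plau rank 245. Of the 10 highest members per kilobase, 6 were structural and 4 were remodelling genes. That split lies near the 28 and 16 of all 44 genes. In CPM it was 7 and 3.

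Among the 6 genes grouped as adhesive glycoproteins, Fn1 was highest. Fn1 encodes fibronectin and was listed at 143.7 CPM, or 17.3 CPM per kilobase. Ecm1, extracellular matrix protein 1, was at 28.5 CPM and 15.0 per kilobase. Postn (periostin), a matricellular protein associated with tissue repair, was at 41.8 CPM and 13.1 per kilobase. Tnc (tenascin-C), another protein of repairing tissue, was at 32.6 CPM and 4.59 per kilobase. Fn1 was thus 3.77 times Tnc and 1.32 times Postn per kilobase. Matn2 (matrilin-2) and Thbs2 (thrombospondin-2) were lower, at 4.54 and 1.96 CPM per kilobase.

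Sparc encodes a collagen-binding matricellular protein and led the 44 genes. Its level was 539.8 CPM, or 234.7 CPM per kilobase. Its paralogue Sparcl1 was at 50.4 CPM and 18.3 per kilobase, so that Sparc was 12.8 times Sparcl1 per kilobase.

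The 10 genes of elastic fibres and microfibrils spanned from 1.10 to 32.1 CPM per kilobase. Efemp1 (fibulin-3) was highest, at 65.4 CPM and 32.1 per kilobase. Fbln5, which helps to place elastin on microfibrils, was at 85.2 CPM and 14.6 per kilobase. Elastin itself, Eln, was at 54.8 CPM and 14.2 per kilobase. Fbn1 (fibrillin-1, the main microfibril protein) was at 46.2 CPM but, with a transcript of 9847 nucleotides, at only 4.69 per kilobase. The microfibril-associated genes Mfap4, Mfap2 and Mfap5 were at 6.90, 5.57 and 3.18 CPM per kilobase. Efemp2 (fibulin-4) was at 6.34, and Fbln1 and Fbln2 were lowest at 1.79 and 1.10.

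All 4 basement membrane genes lay above the median of genes with at least 1 CPM. Nid1 (nidogen-1), which bridges laminin and type IV collagen networks, was at 131.9 CPM and 21.7 per kilobase. Nid2, the second nidogen, was at 23.7 CPM and 4.86 per kilobase, so that Nid1 was 4.45 times Nid2. The heparan sulfate proteoglycan Agrn (agrin) was at 114.7 CPM and 16.5 per kilobase. Hspg2 (perlecan) had nearly as many reads, 105.4 CPM, but its transcript has 14176 nucleotides and its level was 7.43 per kilobase.

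The interstitial proteoglycans spanned the widest range among structural groups. Bgn (biglycan), a small leucine-rich proteoglycan that binds collagen fibrils, was at 236.4 CPM and 97.7 per kilobase. Dcn (decorin), of the same family, was at 63.3 CPM and 36.0 per kilobase. Bgn was thus 2.71 times Dcn. Ogn (osteoglycin) was at 10.6 CPM per kilobase, Fmod (fibromodulin) at 1.98 and Lum (lumican) at 1.51. Vcan (versican), a large proteoglycan that binds hyaluronan, was at 11.5 CPM and, with 12427 nucleotides, at 0.923 per kilobase.

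Of the genes for crosslinking enzymes and the collagen chaperone, Serpinh1 was highest. Serpinh1 encodes the chaperone HSP47 and was at 118.0 CPM and 51.9 per kilobase, which is 3.36 times Loxl2. The lysyl oxidases Loxl2, Lox and Loxl1 were at 47.0, 38.9 and 12.1 CPM. Per kilobase they were at 15.4, 6.64 and 3.66. Plod2, a lysyl hydroxylase that prepares collagen for crosslinking, was at 31.2 CPM and 8.53 per kilobase.

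Metalloproteinases had the lowest median of the role groups, 2.50 CPM per kilobase, and held both members under 1 CPM. Adamts1, a protease of large proteoglycans, was at 48.3 CPM and 9.90 per kilobase. The membrane-bound Mmp14, which activates the product of Mmp2, was at 33.5 CPM and 9.36 per kilobase. Mmp2 itself was at 16.1 CPM and 5.24 per kilobase. Adamts2, which trims procollagen, was at 15.9 CPM, and its RefSeq entry at 1.19 per kilobase. The gelatinase Mmp9 was at 0.599 CPM and matrilysin, Mmp7, at 0.227 CPM. The lowest level in the table is 0.0263 CPM, shared by 4617 transcripts, so both were above it.

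The inhibitors differed widely. Timp3, which binds to the matrix, was at 577.6 CPM and 122.3 per kilobase. Timp2, a soluble inhibitor, was at 66.2 CPM and 17.9 per kilobase. Timp1, also soluble, was at 4.23 CPM and 4.79 per kilobase. Timp3 was thus 6.85 times Timp2 and 25.5 times Timp1 per kilobase. Per kilobase, all 3 inhibitors among the members lay above the median of genes with at least 1 CPM, which was 4.06. In CPM, Timp1 lay below the median of such genes, 12.6 CPM. Timp4, which is in the wider list and not a member, was at 0.342 CPM and 0.0622 per kilobase.

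Of the plasminogen activators, Plau (urokinase) was at 214.2 CPM and 91.4 per kilobase. Plat (tissue-type activator) was at 43.8 CPM and 17.3 per kilobase. Plau was thus 5.27 times Plat.

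Scaling to length moved long and short transcripts in opposite directions. Hspg2 held rank 9 of the members in CPM and rank 23 per kilobase. Fn1 went from rank 5 to rank 12, and Fbn1 from rank 18 to rank 31. In the other direction, Mfap2, with 890 nucleotides, went from rank 40 to rank 27 and Timp1, with 883, from rank 41 to rank 30. Sparc and Timp3 changed places, since Timp3 has 4722 nucleotides and Sparc 2300.

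**Figure D2:**
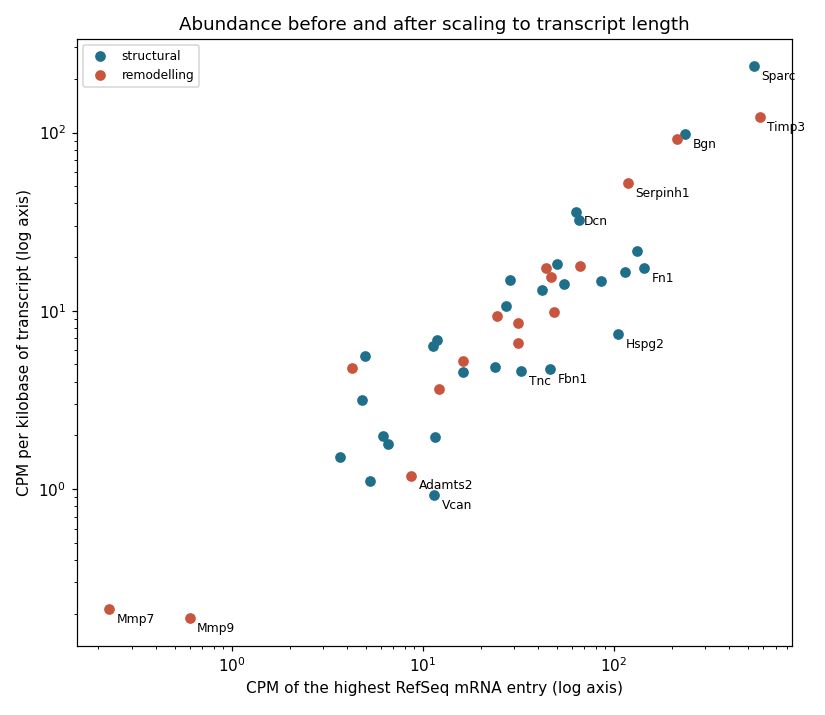
CPM of the highest RefSeq mRNA entry of each of the 44 genes against CPM per kilobase of the matched transcript, both on log axes, with 1 point per gene. Blue points are structural genes and red points remodelling genes, and selected genes are named. Hspg2, Fbn1 and Vcan lie low for their CPM, at 7.43, 4.69 and 0.923 CPM per kilobase.

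The table lists transcripts, and 26 of the 44 genes have more than 1 entry, for 102 entries in all. In 17 of the 26 genes the entries lay within 0.5 on the log2 scale. The 8 entries of Fn1 ranged from 132.2 to 143.7 CPM, and the 4 of Sparc from 527.6 to 539.8 CPM. At such close values the entries do not separate isoforms by level.

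In 3 genes the entries differed by more than 1 on the log2 scale. Vcan had the widest spread, 4.16. Its 5 RefSeq entries had 11.5, 10.9, 5.78, 5.23 and 0.643 CPM. Versican splice forms differ in their chondroitin sulfate attachment regions, and which form each entry encodes was not examined. In Ecm1 and Mmp2 the low entry was a transcript assembled from the reads, at 5.53 CPM and 4.52 CPM. Their RefSeq entries lay at 28.4 CPM and above for Ecm1 and at 16.1 CPM for Mmp2.

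**Figure D3:**
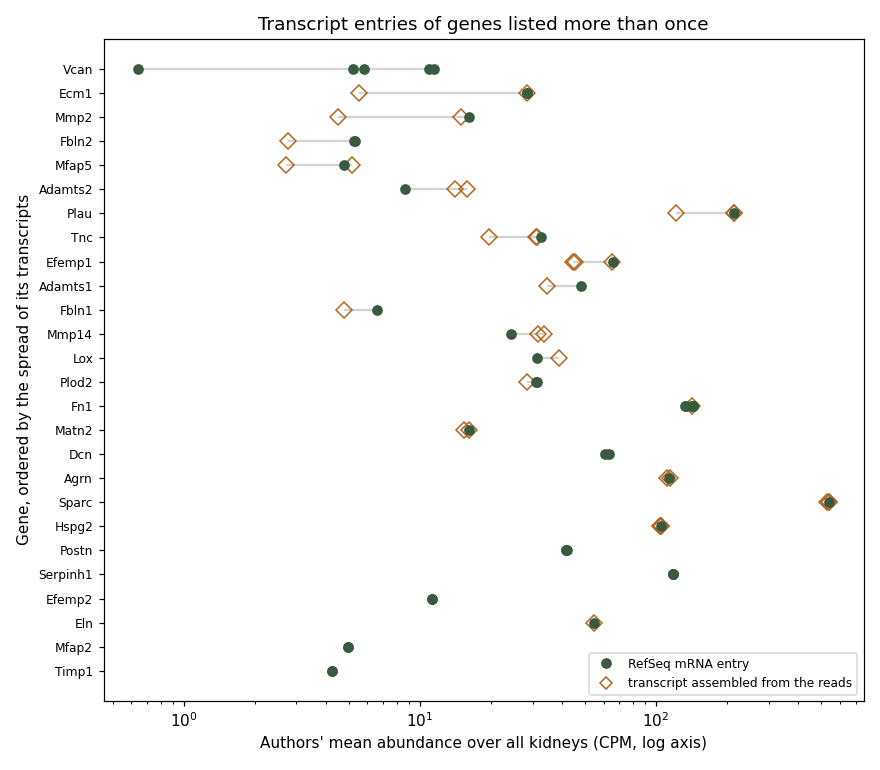
Transcript entries of the 26 matrix genes listed more than once, in CPM on a log axis, with genes ordered by the spread of their entries. Filled circles are RefSeq mRNA entries, open diamonds are transcripts assembled from the reads, and grey lines join the lowest and highest entry. Vcan spans from 0.643 to 11.5 CPM, whereas the entries of most genes overlap.

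Positions come from GENCODE on GRCm38, to which mm10 corresponds. Timp3 lies on the forward strand of chromosome 10 from 86300372 to 86349506 and has 5 exons. It overlaps Syn3, a gene on the opposite strand. Sparc lies on the reverse strand of chromosome 11 from 55394500 to 55423183, with 10 exons. Bgn lies on the X chromosome from 73483602 to 73495933, and Plau on chromosome 14 from 20836660 to 20843385. In all, 8 members overlap a protein-coding gene on the opposite strand, Timp1 and Syn1 among them. Timp2 shares its strand with Cep295nl. The libraries were strand-specific, but the strand setting of the counting is not given in the sources used here, so reads of such partners may not be separated.

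The deleted cluster encodes microRNAs of 4 seed groups, and the seed (bases 2 to 8) pairs with matching letters in a 3′-UTR. The mature sequences below, from RefSeq on GRCm38.p6, are shown so that these groups can be told apart, with the seed in capitals. They lie on the forward strand of chromosome 14 between 115043684 and 115044496.
miR-17-5p: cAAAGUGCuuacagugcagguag
miR-20a-5p: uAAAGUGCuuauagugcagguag
miR-18a-5p: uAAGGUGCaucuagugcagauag
miR-19a-3p: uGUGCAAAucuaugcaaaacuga
miR-19b-3p: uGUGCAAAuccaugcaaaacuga
miR-92a-3p: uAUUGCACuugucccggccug

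The 3′-UTRs of the matrix genes were searched for the complements of these seeds. The letters searched, on the transcript strand, were GCACTTT for miR-17 and miR-20a, GCACCTT for miR-18a, TTTGCAC for miR-19a and miR-19b, and GTGCAAT for miR-92a. The miR-19 and miR-17 letters can overlap. At least 1 match was found in 12 of the 44 genes (27.3%), against 31.4% of the 12449 genes with at least 1 CPM and a 3′-UTR and 26.3% of all 18862 genes with a 3′-UTR. The members' share lies near both. The median 3′-UTR was 879 nucleotides in the matrix genes and 1024 in those genes. By class, 8 of 28 structural and 4 of 16 remodelling genes held a match.

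By seed group, miR-17 letters occurred in 2 matrix genes, Timp2 and Thbs2 (4.55%, against 13.7% of genes with at least 1 CPM). The miR-19 letters occurred in 7 genes (15.9%, against 1495 of those 12449 genes), namely Timp2, Plat, Postn, Tnc, Mfap4, Lum and Mmp7. The miR-92a letters occurred in Bgn, Fbn1 and Lox (6.82%, against 7.04%). Those of miR-18a occurred in Fbln5 (2.27%, against 8.59%). Timp3, Sparc, Plau and Fn1 held none of these letters. A match is a description of the sequence and not a site of action.

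The matches of Timp2 and Thbs2 are printed because these are the only members with miR-17 letters, with the match in capitals. In Timp2 the letters lie at positions 1857 to 1863 of a 3′-UTR of 2630 nucleotides, in the last of 5 exons, and overlap a miR-19 match. The window is chr11:118301825-118301853 on the reverse strand of GRCm38. In Thbs2, whose 3′-UTR has 2013 nucleotides, the windows are chr17:14666572-14666600 and chr17:14665854-14665882, also on the reverse strand and in the last of 22 exons.
Timp2: cattagactttGCACTTTtaaaaaaaaaa
Thbs2, first match: agttggcagatGCACTTTggtaccctgtt
Thbs2, second match: cttgttatcctGCACTTTttagatttttg

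The wider matrix list holds 46 further matrix-related genes, not all from the families of the members. Its median was 2.21 CPM per kilobase, and 36 of the 46 reached 1 CPM. Spp1 (osteopontin), an adhesive phosphoprotein of injured tubules, was highest at 884.8 CPM per kilobase, above every one of the 44 members. P4hb, a subunit of collagen prolyl hydroxylase, and the protease Adam10 followed at 68.3 and 17.8. The lowest 3 were the metalloproteinases Mmp8, Mmp24 and Mmp10, at 0.0451, 0.0183 and 0.0178 CPM per kilobase.

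Markers of the cell types that make matrix were present beside those of tubules. Per kilobase, the 6 fibroblast and pericyte markers ranged from 7.68 CPM for Pdgfra to 55.3 for Col3a1. The 4 endothelial markers ranged from 4.15 CPM per kilobase for Kdr to 23.3 for Emcn. Of the macrophage markers, Csf1r was at 6.24 CPM per kilobase and Ptprc at 1.62. Cd68, at 5.19 CPM, had no matched length, and Adgre1 had no entry under that symbol. The tubule markers Slc34a1 and Umod were at 423.1 and 374.4 CPM per kilobase. All the cell types listed had at least 1 marker above 10 CPM. The part of each cell type in the matrix levels was not tested. The targeted genes had entries as well, Pkd1 at 31.8 CPM and Mir17hg, the host transcript of miR17~92, at 4.21 CPM. As means over both genotypes these values do not check the labels.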

How the data were processed

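RNA of 3 Pkd1F/RC-SKO and 3 Pkd1F/RC-DKO kidneys was sequenced by the authors from strand-specific total RNA libraries. Per the submitters' processing notes, reads were mapped to mm10 with TopHat2 2.0.12, and Cufflinks, featureCounts of Subread 1.4.6 and edgeR 3.2.4 were used. The deposited log2 values used here are a mean log2 CPM for each of 54721 transcripts over all kidneys, which was converted to CPM. The CPM of all transcripts sum to 1007270. Library sizes and the prior count are not given in the sources used here, and a read may have been counted for each overlapping transcript. Precision could not be set, since the table has no values for single kidneys.

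The table also holds the authors' comparison of DKO with SKO kidneys (log2 fold change, likelihood ratio statistic, p-value and adjusted p-value), which was not used. A quasi-likelihood test on counts of single kidneys had been planned and was not possible.

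The level of a gene is that of its most abundant entry, and 9317 transcripts without a symbol were left out. Transcript lengths, exons and 3′-UTRs came from GENCODE vM21. Alternatives were the sum of a gene's entries, their median, and RefSeq mRNA entries alone. Selection of levels and the search for seed letters were tested on simulated data. Members, classes and lists were chosen with earlier results of these data known, and all 44 members are named. From the wider list the 3 highest and 3 lowest are named, and Timp4 beside the other inhibitors. Of the markers, those at the ends of a cell type's range are named. Python 3.11.15, numpy 2.4.6, pandas 2.3.3 and matplotlib 3.10.9 were used.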

Additional observations from a re-analysis of the deposited data

How the results depend on the processing

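With the sum of a gene's entries, the median of the structural genes was 14.0 CPM per kilobase, against 7.16 with the RefSeq entry, and that of the remodelling genes 16.2 against 8.93. In CPM on the log2 scale these medians were 5.62 against 4.93 with the highest entry and 5.80 against 5.17. Of the 44 members, 14 in place of 9 had at least 100 CPM. With the highest entry, 595 of all 23276 genes (2.56%) did. A sum counts a read again for each overlapping entry if reads were counted so, which was not tested. Entries of the same gene could have equal levels, such as RefSeq and assembled entries of Sparc, both at 539.8 CPM. With RefSeq mRNA entries alone, with the median of a gene's entries, or per kilobase with the highest entry of any kind (an alternative chosen after seeing the data), the medians of both classes and the counts at 1 and 100 CPM moved by less than 1.5 times. Single genes moved more. Adamts2 was at 8.65 CPM with its RefSeq entry against 15.9 with the highest, and Vcan at 5.78 CPM with the median of its entries against 11.5. The median of structural minus that of remodelling genes was -0.25 on the log2 CPM scale with the highest entry and ranged from -0.18 to -0.04 under the alternatives. Another normalization, DESeq2's test, a run without an expression filter and leaving out each kidney were planned but not run, because each needs values for single kidneys. No paired analysis was possible because the table has no value for a single kidney.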
